A study of Mus musculus with 59 samples.

Results

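The genes described here are 7 genes of the mouse Hoxa cluster (Hoxa3, Hoxa4, Hoxa5, Hoxa6, Hoxa7, Hoxa9 and Hoxa10) and Meis1, whose protein binds DNA together with Hoxa proteins. They were chosen by name and make up 8 of the 51562 genes listed in every table of normalized counts. The values come from RNA-seq of cells sorted from the bone marrow of C57BL/6 mice. KLS cells (c-Kit+ Lin− Sca-1+) hold the stem cells and multipotent progenitors, while GMPs, the progenitors of granulocytes and monocytes, are restricted to the myeloid lineage. The question behind the design was what changes in these cells without Daxx, a chaperone of histone H3.3, and whether it depends on the transcription factor Pu.1, which is encoded by Spi1.

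Time is counted in weeks after the end of induction (wpi). In the study, the Daxx +/+ and Daxx F/F mice at 3 and 24 wpi carried 1 copy of the Mx1Cre transgene, the wild-type (WT) controls included. No copy number is given for the lines with Pu.1 alleles, and the sample labels name no Cre. At 3 wpi the genotypes were Daxx +/+ (WT, n = 3), Daxx F/F (Daxx-KO, n = 3) and Daxx F/F Pu.1 F/F (DKO, n = 2), all with Mx1Cre, for KLS cells and for GMPs. Mx1Cre is driven by an interferon-responsive promoter and is switched on by injecting pI:pC, so it is not confined to blood cells. A separate line at 3 wpi gave 2 libraries each of Pu.1 +/+ (WT) and Pu.1 F/F (Pu.1-KO) for both cell types. Another 2 Daxx +/+ and 2 Daxx F/F libraries of each cell type have no time on their labels and are called untimed, and 2 WT libraries of each cell type come from 24 wpi. In the methods of the study, duplicate libraries are described for cells of irradiated recipients of transplanted bone marrow, and the labels do not say whether the untimed libraries are those. No age is on the labels. The methods of the study call the replicates of its genomic data biological, but the labels do not tie each library to an animal. At 3 wpi, in the Pu.1 line and at 24 wpi, the same numbers head columns of KLS cells and of GMPs. Libraries of both cell types may therefore come from the same mice, and no pairing between cell types was used. The p values rest on the spread between these libraries, which the test shares over genes of like expression.

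Hox genes are transcription factors that lie in clusters and are switched on in an order that follows their position. In blood, the Hoxa genes from Hoxa5 to Hoxa10 are known for their activity in stem cells and early progenitors and for their loss as cells mature. Hoxa9 is the best studied of them, and with Meis1 it drives self-renewal in many leukaemias. Meis1 and the Pbx proteins are homeodomain proteins of the TALE class that bind DNA together with Hox proteins.

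Hoxa7, Hoxa9, Hoxa10 and Meis1 had reads in both cell types and were higher in KLS cells than in GMPs. Hoxa9 fell in untimed Daxx-KO cells of both types, to 19.0% of WT in KLS cells and 9.23% in GMPs. At 3 wpi Daxx-KO alone gave no call for any of them, whereas the libraries labelled DKO had less Hoxa7, Hoxa10 and Meis1 than WT in KLS cells. Hoxa3, Hoxa4, Hoxa5 and Hoxa6 were listed at 0 in every library.

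Depth ran from 3388906 to 22647397 reads in genes in the untimed libraries, from 10699070 to 19105576 at 3 wpi, the Pu.1 line included, and from 18184501 to 29335964 at 24 wpi. In each library labelled Daxx-KO or DKO, Daxx lay below all WT libraries of the same table. Spi1 was not lower in the KLS libraries labelled DKO, at 2993 and 3330 normalized counts against 1669 to 2320 in WT, and it overlapped with WT in KLS libraries labelled Pu.1-KO. In GMPs labelled Pu.1-KO it was 2589 and 2707, against 3395 and 3934 in WT, so it was lower but not lost. In GMPs labelled DKO it was 3846 and 2989, which overlapped with WT at 3348 to 4604. A deletion of part of a gene can leave reads from the rest, so directions drawn from the DKO and Pu.1-KO libraries rest on their labels. Libraries of the Pu.1 line listed more genes above 0, at 24539 to 30291, than the other libraries, at 17066 to 22416.

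All Hoxa members lie on the minus strand of chromosome 6 in GRCm38. Hoxa3 spans 52169062–52213336, Hoxa4 52189671–52191753, Hoxa5 52201754–52204587 and Hoxa6 52206288–52208722. Further along come Hoxa7 at 52214491–52221854, Hoxa9 at 52223100–52231089 and Hoxa10 at 52231197–52240854. Meis1 spans 139.2 kb of chromosome 11, at 18879817–19018985, also on the minus strand.

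The sequences before the starts of Hoxa9, Hoxa10 and Meis1 are shown because these 3 genes fell together in untimed KLS cells, and because Pu.1, one of the deleted factors, binds DNA through a purine-rich core. They are the 250 bases before a RefSeq start (234 for Meis1), printed 5′ to 3′ on the strand of the gene, from chr6:52227371-52227620, chr6:52240855-52241104 and chr11:19018986-19019219 in GRCm38.p6. The first of them lies inside the longer span that GENCODE gives Hoxa9. Capitals mark the letters GAGGAA, or TTCCTC where they lie on the other strand, a form of the Pu.1 core.
Hoxa9: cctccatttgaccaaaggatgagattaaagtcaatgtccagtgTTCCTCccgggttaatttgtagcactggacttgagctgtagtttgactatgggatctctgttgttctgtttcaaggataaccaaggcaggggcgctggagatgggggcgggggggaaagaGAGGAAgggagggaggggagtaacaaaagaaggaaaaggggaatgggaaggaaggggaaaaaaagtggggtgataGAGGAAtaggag
Hoxa10: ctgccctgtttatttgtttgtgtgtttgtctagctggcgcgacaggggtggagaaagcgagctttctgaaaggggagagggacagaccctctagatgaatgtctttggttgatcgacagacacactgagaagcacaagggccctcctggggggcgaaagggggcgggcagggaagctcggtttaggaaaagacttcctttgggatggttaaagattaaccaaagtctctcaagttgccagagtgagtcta
Meis1: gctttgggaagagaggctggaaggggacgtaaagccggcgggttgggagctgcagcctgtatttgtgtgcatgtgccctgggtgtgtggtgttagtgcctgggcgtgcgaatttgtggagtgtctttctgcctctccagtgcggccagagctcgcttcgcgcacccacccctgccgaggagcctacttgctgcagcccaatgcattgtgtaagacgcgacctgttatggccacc
The Hoxa9 window held 3 matches and the windows of Hoxa10 and Meis1 held 0. A second Hoxa10 start, with the window chr6:52234940-52235189, had 0 as well. Of 32851 promoter windows of 250 bases, 23.3% held at least 1 match. TGACAG, the core that Meis proteins bind, had no match in any of the 4 windows and was found in 15.9% of all windows, and TGATTTAT, bound by Hox and Pbx proteins together, had none either and was found in 0.837%. Both strands were searched, and since GAGGAA alone had matches, no match overlapped one of another motif. A match describes letters in a window and does not show that a factor binds there.

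Hoxa3, Hoxa4, Hoxa5 and Hoxa6 were listed at 0 in all 36 libraries, in both cell types and in every genotype. These genes pattern the anterior body, and Hoxa5 is also known to act in blood progenitors. Their spans lie wholly inside those of other annotated genes, on either strand. Of 1314 protein-coding genes with a wholly covered span, 1136 (86.5%) were at 0 in every library, against 453 of 11622 (3.9%) of those with no base covered. With a covered share above 0 and under 20% the count was 19 of 6480 (0.293%), from 20% to under 90% it was 35 of 1915 (1.83%), and from 90% to under the whole span 142 of 357 (39.8%). The same split was seen in the Hox genes as a whole. Of 39 Hox genes, the 12 with a wholly covered span were all at 0 and none of the other 27 was.

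The 8 further Hox genes at 0 were Hoxb2, Hoxb5, Hoxb6, Hoxc6, Hoxc8, Hoxc9, Hoxd4 and Hoxd8. Rpl35 and Rpl35a encode ribosomal proteins that every cell uses, and Hif1a a transcription factor of the response to low oxygen. All of these genes are wholly covered and at 0 in every library too. These 3 were chosen after their values were seen. A listed 0 for Hoxa3 to Hoxa6 therefore gives no level for these genes, and no fold change or test is given for them. The covered share was 7.96% for Hoxa7, 1.06% for Hoxa9, 0 for Hoxa10 and 6.47% for Meis1. Reads that fall in a covered stretch of these 3 genes may be missing from their values, and this was not tested.

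**Figure D1:**
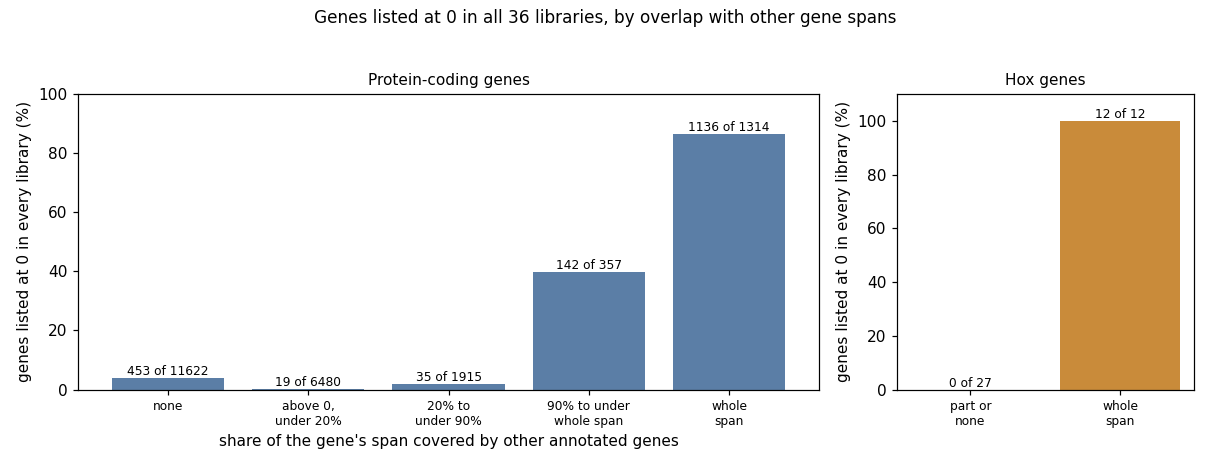
Percentage of genes listed at 0 in all 36 libraries (vertical axis), by the share of the gene span that other annotated genes cover, for all protein-coding genes on the left and for Hox genes on the right, with counts above the bars. The bar for wholly covered genes stands at 86.5% on the left, and on the right all 12 wholly covered Hox genes were at 0, among them Hoxa3, Hoxa4, Hoxa5 and Hoxa6.

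In WT cells the 4 members with reads were higher in KLS cells than in GMPs. Tables were normalized separately, so levels of different tables are given side by side as reads per 1000000 reads in genes (RPM), with no test. Over 9 WT libraries of each cell type, Meis1 ran from 836 to 1759 RPM in KLS cells (median 1180) and from 41.9 to 175 in GMPs (median 114). Hoxa9 ran from 22.0 to 85.5 RPM in KLS cells (median 46.0) and from 5.07 to 17.0 in GMPs (median 8.85). Hoxa10 ran from 8.64 to 16.5 RPM in KLS cells (median 13.5) and from 0.0381 to 1.75 in GMPs (median 0.935). For these 3 genes the lowest KLS library was above the highest GMP library. Hoxa7 had the narrowest step, from 21.5 to 47.9 RPM in KLS cells (median 40.4) and from 7.29 to 26.6 in GMPs (median 11.7), and the ranges overlapped. The ratio of the medians, KLS cells over GMPs, was 14.4 for Hoxa10, 10.3 for Meis1, 5.201 for Hoxa9 and 3.44 for Hoxa7.

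At 24 wpi only WT libraries are used here, and they had the values of 946 and 1019 normalized counts in KLS cells and 191 and 408 in GMPs for Hoxa7. Hoxa9 had 1104 and 1461 in KLS cells and 116 and 176 in GMPs, and Meis1 had 28082 and 19902 against 2611 and 3414. Hoxa10 had 393 and 359.5 in KLS cells and 18.6 and 0.851 in GMPs, where library b held a single read. The higher level in KLS cells was thus seen at this time as well.

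The order of the genes depends on how length enters. Per kb of exon, the median WT level in KLS cells was 112 RPM for Meis1, 14.0 for Hoxa7, 8.25 for Hoxa9 and 4.12 for Hoxa10. Per kb of gene span it was 8.48 RPM for Meis1, 5.76 for Hoxa9, 5.48 for Hoxa7 and 1.40 for Hoxa10. Meis1 stood first and Hoxa10 last on both scales, while Hoxa7 and Hoxa9 changed places. The ranges of Hoxa7 and Hoxa9 overlapped on both scales, at 7.47 to 16.6 and 3.94 to 15.3 RPM per kb of exon. In GMPs, Meis1 had a median of 10.9 RPM per kb of exon, Hoxa7 4.08, Hoxa9 1.59 and Hoxa10 0.286. In bulk samples, fewer cells of a type and less RNA per cell cannot be told apart.

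**Figure D2:**
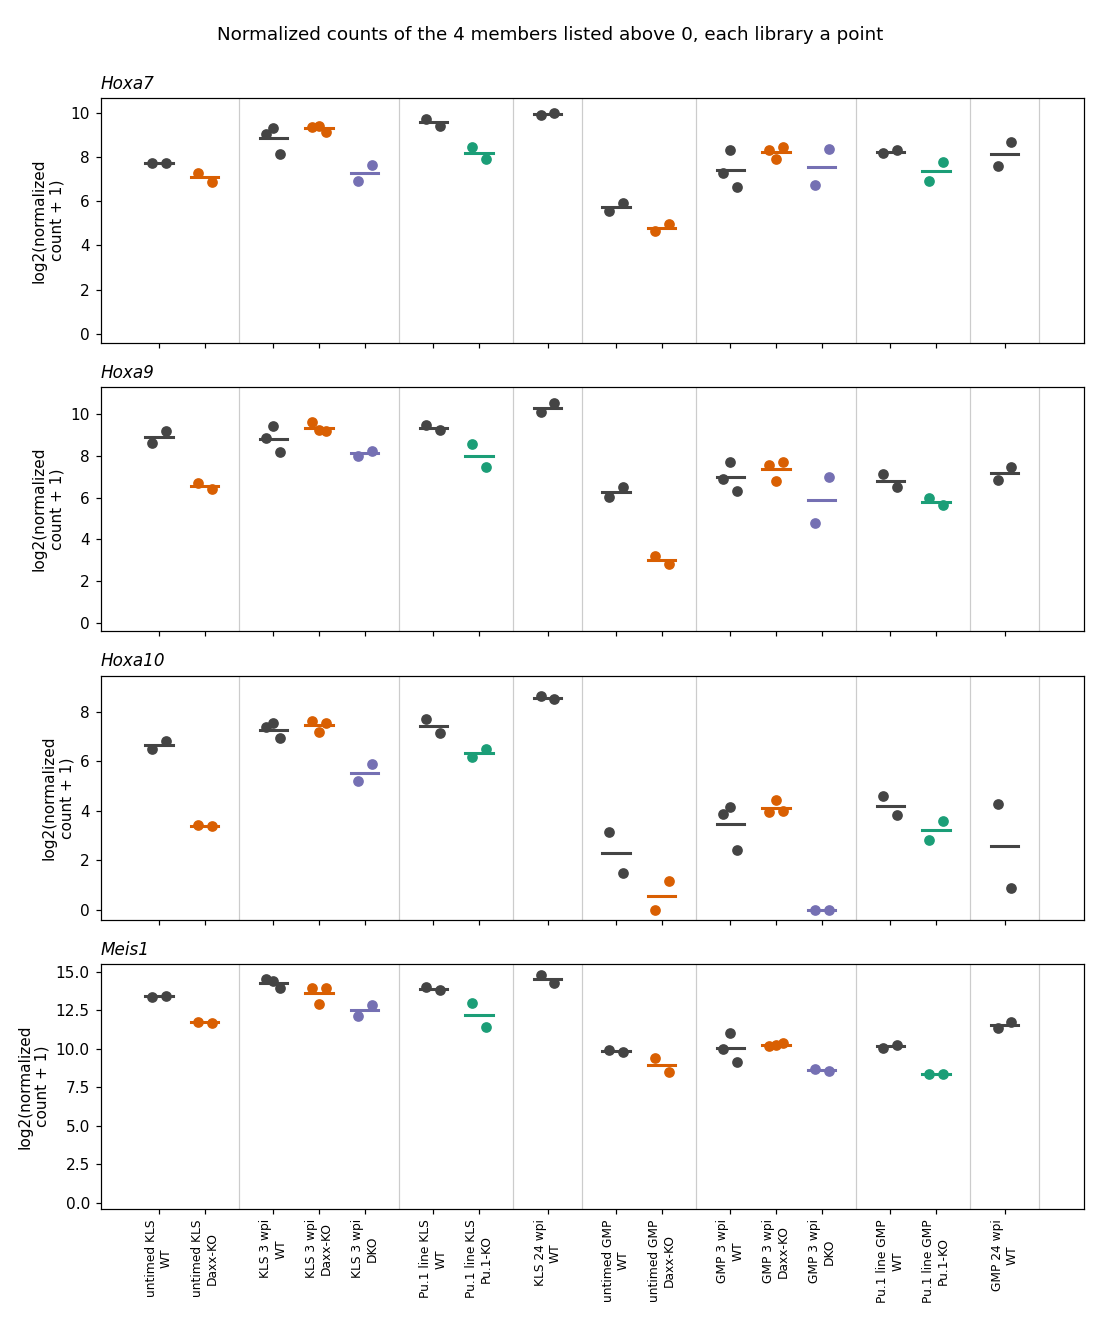
Normalized count of Hoxa7, Hoxa9, Hoxa10 and Meis1 on a log2(value + 1) scale (vertical axis), with 1 point per library, grouped by table and genotype, and a line at the mean of each group. In untimed cells both Daxx-KO libraries of Hoxa9 lie below both WT libraries, and in GMPs at 3 wpi both libraries labelled DKO of Hoxa10 lie at 0.

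In untimed KLS cells, Hoxa9, Hoxa10 and Meis1 fell in Daxx-KO. Hoxa10, the most 5′ of the members and known to act in progenitor expansion, had 89.5 and 112 normalized counts in WT and 9.85 and 9.39 in Daxx-KO. Hoxa9 had 396 and 580 in WT and 103 and 83.0 in Daxx-KO. Meis1 had 10752 and 10968 in WT and 3434 and 3336 in Daxx-KO. For each of them both Daxx-KO libraries lay well below both WT libraries, and the values within a genotype were close except for Hoxa9 in WT. The log2 fold change by limma was −3.25 (SE 0.40, adjusted p 0.000681) for Hoxa10, −2.36 (SE 0.22, adjusted p 0.000143) for Hoxa9 and −1.68 (SE 0.093, adjusted p 9.88e-06) for Meis1, with n = 2 per genotype. In means these were 10.5-fold, 5.25-fold and 3.21-fold lower levels.

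Hoxa7, a neighbour of Hoxa9 that is active in early progenitors, had 212 and 208 normalized counts in WT and 156 and 115 in Daxx-KO. Its groups did not overlap, but the difference missed the test, at −0.64 (SE 0.21, adjusted p 0.056). Of the 4 members tested, 3 were called, all lower, where 23.1% of all 13508 genes were called in either direction and 12.5% were lower. The median log2 fold change of the members was −2.02, beside 0.032 over all genes. With Daxx-KO library 2 left out, the deepest of the table, Meis1 alone was called, and Hoxa9 (−2.21, adjusted p 0.065) and Hoxa10 (−3.22, adjusted p 0.063) kept their size. Hoxa7 was called with the replicate block (adjusted p 0.042) and by edgeR (adjusted p 0.04998).

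The sums of stem cell and of granulocyte–monocyte markers differed between the genotypes in these libraries too. The summed level of 7 stem cell markers was 2984 to 3160 RPM in WT and 333 to 364 in Daxx-KO, with 6 of 7 lower and Ly6a higher. The sum of 8 granulocyte–monocyte markers went the other way, from 109 to 209 RPM in WT to 1747 to 2288 in Daxx-KO, with 7 of 8 higher. B lineage markers summed to 303 to 615 RPM in WT and 23.2 to 24.9 in Daxx-KO. Of these 8 genes, Ebf1, Pax5, Cd79a, Il7r and Dntt were lower and Cd79b was higher (1.25), while Vpreb1 had 0 and 6.89 normalized counts in WT and 0 in both Daxx-KO libraries. Of 5 plasma cell markers, Jchain, Sdc1, Prdm1 and Mzb1 were called lower and Xbp1 higher. Of 5 mature neutrophil markers 0 were called, and the WT libraries stood far apart in them. The WT values were 3.44 and 1146 normalized counts for S100a8, and 12.1 and 1672 for S100a9. Limma called 23.1% of all genes here. The part of all these markers in the fall of Hoxa9, Hoxa10 and Meis1 was not tested.

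In untimed GMPs, Hoxa9 and Meis1 fell. Hoxa9 had 63.7 and 90.4 normalized counts in WT and 8.11 and 6.12 in Daxx-KO. Meis1 had 980 and 891 in WT and 677 and 359 in Daxx-KO. Both genes had all Daxx-KO libraries below all WT libraries, with a wide gap for Hoxa9 and a narrower one for Meis1. The log2 fold change was −3.26 (SE 0.45, adjusted p 0.000679, limma, n = 2 per genotype) for Hoxa9, and −0.92 (SE 0.24, adjusted p 0.017) for Meis1. Behind the Daxx-KO values of Hoxa9 stood 4 and 15 reads, so its size is imprecise.

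Hoxa7 had 46.8 and 58.7 normalized counts in WT and 24.3 and 30.2 in Daxx-KO, groups that did not overlap and that missed the test (−0.93, SE 0.36, adjusted p 0.078). Hoxa10 had 7.81 and 1.81 in WT and 0 and 1.22 in Daxx-KO, from 6, 2, 0 and 3 reads, and was too low to be tested. Of 3 members tested 2 were called, both lower, where 33% of 12744 genes were called and 16.5% were lower. The members had a median of −0.93, beside −0.014 over all genes. For Meis1 the call was lost by DESeq2 (adjusted p 0.157) and without either WT library (adjusted p 0.112 and 0.082). Its size rested on the Daxx-KO pair, at −0.46 without Daxx-KO library 2 and −1.38 without Daxx-KO library 1. Each of these fits holds 1 Daxx-KO library, and its spread comes from the WT pair alone.

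Marker sums differed between the genotypes in untimed GMPs too. Stem cell markers summed to 193 to 227 RPM in WT and 97.97 to 113 in Daxx-KO. Granulocyte–monocyte markers were at 10503 to 10579 RPM in WT and 9557 to 10068 in Daxx-KO. Of these 8 genes, Mpo, Fcgr3 and Csf1r were called lower and Elane, Prtn3, Ms4a3 and Cebpe higher. Mature neutrophil markers were at 705 to 956 RPM in WT and 4953 to 6952 in Daxx-KO. Of these 5 genes, S100a8, S100a9 and Ngp were called higher and Camp lower (−0.82, adjusted p 0.041), where limma called 33% of all genes. Their part in the values of Hoxa9 and Meis1 was not tested.

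**Figure D3:**
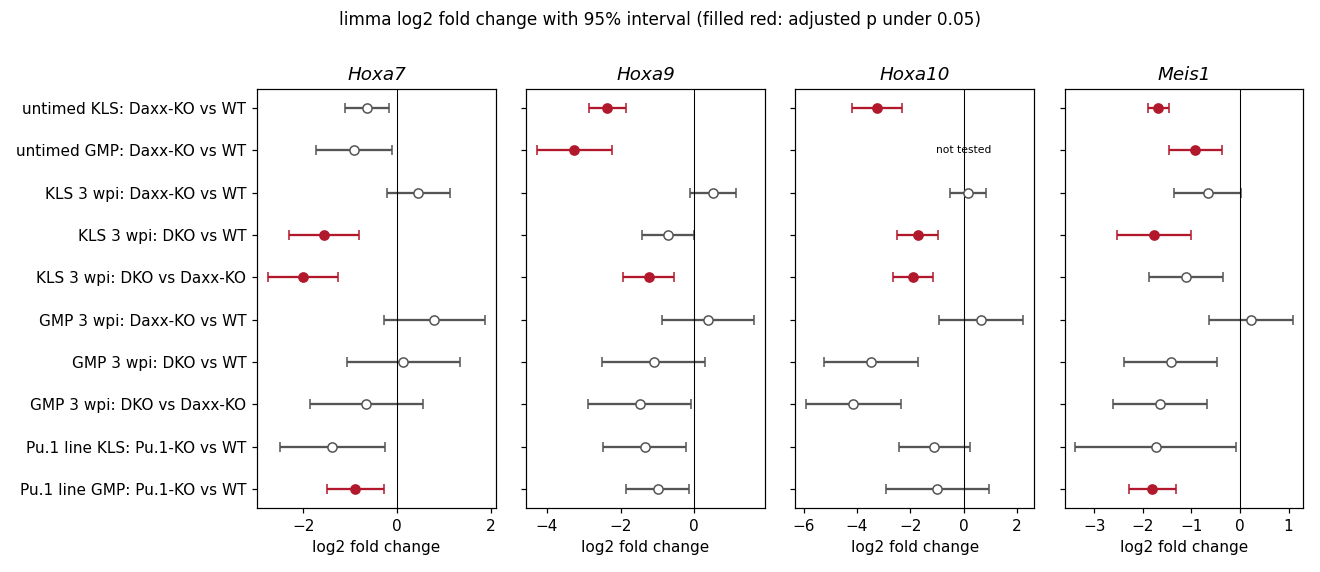
log2 fold change by limma (horizontal axis) of Hoxa7, Hoxa9, Hoxa10 and Meis1 in each of 10 comparisons (vertical axis), with 95% intervals, filled red where the adjusted p was under 0.05. Hoxa9 has its lowest values in untimed cells, at −2.36 in KLS cells and −3.26 in GMPs, and no member is called in Daxx-KO cells at 3 wpi.

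At 3 wpi the Daxx-KO KLS cells did not repeat this pattern. Hoxa9 had 460, 681 and 292 normalized counts in WT and 782, 601 and 583 in Daxx-KO. Hoxa7 had 535, 630 and 285 in WT and 648, 686 and 552 in Daxx-KO. Hoxa10 had 164, 184 and 120 in WT and 197, 144 and 184 in Daxx-KO. In all 3 genes the lowest WT value was that of the third library, here called unnumbered because its column name stands in no sample title, and the genotypes overlapped. Meis1 had 23320, 21301 and 15670 in WT and 15814, 7628 and 16033 in Daxx-KO, where library 2 was lowest, and it overlapped by a small margin.

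None of the 4 members was called by limma in this comparison, where 0.257% of 15200 genes were called, and 0 had an unadjusted p under 0.05. With edgeR or DESeq2 the number was 0 too. The log2 fold changes were 0.45 for Hoxa7 (95% interval −0.22 to 1.12), 0.53 for Hoxa9 (−0.098 to 1.15), 0.17 for Hoxa10 (−0.50 to 0.85) and −0.67 for Meis1 (−1.35 to 0.013). Their median was 0.31, beside −0.00052 over all genes. For Hoxa9 the interval leaves out a fall of the size seen in untimed KLS cells, and the difference between the sets was not tested, as they were normalized separately.

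Stem cell markers summed to 2919 to 4408 RPM in WT and 1355 to 3248 in Daxx-KO. B lineage markers were at 159 to 239 RPM in WT and 670 to 3798 in Daxx-KO, though of 8 genes only Dntt was called. Megakaryocyte and erythroid markers were at 118 to 141 RPM in WT and 42.1 to 65.1 in Daxx-KO, with 1 of 7, Itga2b, called lower. The unnumbered WT library, the lowest of its group in Hoxa7, Hoxa9 and Hoxa10, held 3365 RPM of granulocyte–monocyte markers, against 380 and 996 in the other WT libraries, and 1981 RPM of mature neutrophil markers, against 169 and 37.1. The part of these markers in the values of the members was not tested.

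In KLS libraries labelled DKO, Hoxa7, Hoxa10 and Meis1 fell against WT. Hoxa7 had 122 and 198 normalized counts, Hoxa10 had 35.5 and 58.8, and Meis1 had 4537 and 7394. Every one of these lay below all 3 WT libraries. The log2 fold changes were −1.56 (SE 0.33, adjusted p 0.013) for Hoxa7, −1.73 (SE 0.34, adjusted p 0.00873) for Hoxa10 and −1.77 (SE 0.34, adjusted p 0.00817) for Meis1, by limma with n = 2 against 3. These were 3.03-fold, 3.32-fold and 3.37-fold lower means. Hoxa9 had 254 and 300 in DKO, which overlapped with WT through the unnumbered library, and missed the test at −0.71 (SE 0.31, adjusted p 0.149).

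Thus 3 of 4 members were called lower, where 17.6% of all genes were called and 8.4% were lower, and the median of the members was −1.64, beside −0.00031. Without DKO library 1 none of the 4 was called, with −1.21 for Hoxa7 (adjusted p 0.144), −1.37 for Hoxa10 (adjusted p 0.093) and −1.42 for Meis1 (adjusted p 0.106). Without the unnumbered WT library Hoxa9 was called too (−1.02, adjusted p 0.018), and without WT library 1 Hoxa7 was not (adjusted p 0.051).

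Set against Daxx-KO, the libraries labelled DKO had less Hoxa7, Hoxa9 and Hoxa10. Both comparisons use the same DKO libraries, and those against WT share the WT libraries. In each of the 4 genes both DKO values lay below all 3 Daxx-KO values. The share of all genes with such a gap was not counted. The log2 fold change was −2.01 for Hoxa7 (SE 0.33, adjusted p 0.00356), −1.90 for Hoxa10 (SE 0.34, adjusted p 0.00516) and −1.23 for Hoxa9 (SE 0.31, adjusted p 0.026). Meis1 missed the test by limma at −1.10 (SE 0.34, adjusted p 0.056) and was called by DESeq2 (−1.14, adjusted p 0.00349). Of 4 members 3 were called lower, where 15.4% of all genes were called and 7.22% were lower, with a median of −1.57, beside −0.014. Without DKO library 1 none was called (−1.66, −1.11 and −1.55 for Hoxa7, Hoxa9 and Hoxa10), without Daxx-KO library 1 or 3 or DKO library 2 Hoxa9 was not called (adjusted p 0.092, 0.053 and 0.063), and without Daxx-KO library 2 all 4 were called.

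The sums of myeloid markers stood high in these KLS libraries, though not every marker did. Granulocyte–monocyte markers summed to 7022 and 8097 RPM in DKO, against 380 to 3365 in WT and 295 to 960 in Daxx-KO. Mature neutrophil markers summed to 9740 and 10846 RPM in DKO, against 37.1 to 1981 in WT and 68.0 to 422 in Daxx-KO. Against WT, limma called 17.6% of all genes. Of the 8 granulocyte–monocyte markers 3 were called higher, Elane, Ctsg and Cebpe, while Csf1r had −1.85 (adjusted p 0.072). Of the 5 mature neutrophil markers 3 were called higher, S100a8, Ngp and Camp, while Ltf had −0.087. Stem cell markers were at 1037 and 1530 RPM in DKO, below every WT library, and overlapped with those in Daxx-KO, at 1355 to 3248. Their part in the values of Hoxa7, Hoxa10 and Meis1 was not tested.

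**Figure D4:**
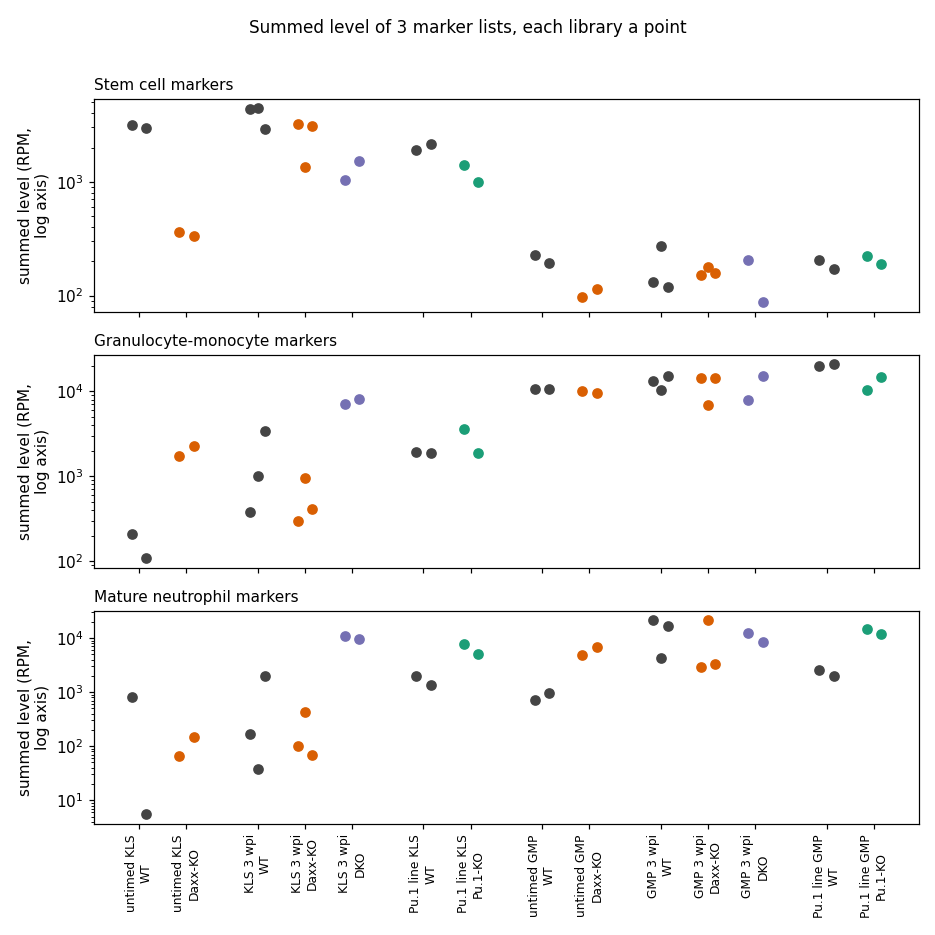
Summed level of stem cell, granulocyte–monocyte and mature neutrophil markers in RPM (vertical axes, log scale), with 1 point per library, by table and genotype. The 2 KLS libraries labelled DKO hold 9740 and 10846 RPM of mature neutrophil markers, above the other KLS libraries shown, and stem cell markers in untimed Daxx-KO KLS cells lie between 333 and 364 RPM.

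In GMPs at 3 wpi no member was called in any of 3 comparisons. Meis1 had 1021, 2110 and 556 normalized counts in WT, 1181, 1203 and 1339 in Daxx-KO and 419 and 371 in DKO. Both libraries labelled DKO lay below all others. Its log2 fold change was −1.43 (95% interval −2.39 to −0.47, adjusted p 0.338) against WT and −1.65 (−2.61 to −0.69, adjusted p 0.233) against Daxx-KO. Hoxa10 had 13.5, 16.8 and 4.35 in WT, 14.6, 20.9 and 14.8 in Daxx-KO and 0 in both DKO libraries. With a floor of 3 reads per library, its level in DKO was at least 3.85-fold lower than the WT mean and at least 5.60-fold lower than the Daxx-KO mean, yet it missed the test (adjusted p 0.163 and 0.115).

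Hoxa9 spread widely within each genotype in these GMPs. It had 117, 206 and 79.4 normalized counts in WT, 189, 111 and 207 in Daxx-KO and 26.4 and 125 in DKO. Hoxa7 had 156, 321 and 100 in WT, 314, 239 and 349 in Daxx-KO and 107 and 330 in DKO. For both genes all genotypes overlapped, and the libraries labelled DKO stood far apart, with library b the higher in each. Between Daxx-KO and WT, 0 of 4 members and 0.0948% of 13714 genes were called, and the members ran from 0.22 to 0.79 with a median of 0.52, beside −0.012 over all genes. Between DKO and WT, 0 of 4 were called by limma and edgeR and 2, Hoxa10 and Meis1, by DESeq2. Over all genes limma called 0.292% there, and DESeq2 called 263 of 13700. The same numbers of members held between DKO and Daxx-KO, where limma called 0.0583% of all genes and DESeq2 280 of 13700. An unadjusted p under 0.05 was found for 0, 2 and 3 members in these comparisons, and the medians of the last 2 were −1.26 and −1.57, beside −0.013 and −0.0064.

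Mature neutrophil markers in these GMPs ran from 4357 to 21166 RPM in WT, from 2972 to 21160 in Daxx-KO and from 8297 to 12342 in DKO. Stem cell markers summed to 119 to 272, 152 to 178 and 87.7 to 205 RPM. Neither of these lists separated the genotypes. B lineage markers did separate Daxx-KO from WT, at 164, 888 and 163 RPM against 17.9, 54.4 and 15.9, with 1 of 8, Dntt, called higher, and they were at 326 and 22.9 RPM in DKO. Megakaryocyte and erythroid markers were at 51.8 to 82.2 RPM in Daxx-KO and 88.5 to 151 in WT, with 0 of 7 called. Their part in the values of Hoxa7, Hoxa9 and Meis1 was not tested.

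In KLS cells of the Pu.1 line none of the 4 members passed the test, though each had lower values in both libraries labelled Pu.1-KO. Meis1 had 16776 and 14166 normalized counts in WT and 7976 and 2701 in Pu.1-KO. Hoxa9 had 702 and 595 in WT and 377 and 173 in Pu.1-KO. Hoxa7 had 851 and 677 in WT and 351 and 243 in Pu.1-KO. The groups did not overlap in any of these, and the Pu.1-KO libraries differed most from each other in Meis1. Hoxa10 had 209 and 139 in WT and 70.2 and 89.6 in Pu.1-KO, without overlap as well. The share of all genes without overlap was not counted, so this is no result about the members.

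The log2 fold changes in this comparison were −1.73 (SE 0.85, adjusted p 0.178) for Meis1, −1.33 (SE 0.58, adjusted p 0.136) for Hoxa9, −1.38 (SE 0.57, adjusted p 0.126) for Hoxa7 and −1.09 (SE 0.67, adjusted p 0.268) for Hoxa10, by limma with n = 2 per genotype. By limma, edgeR and DESeq2, 0 of 4 members were called, where limma called 0.81% of 23459 genes, and 3 members had an unadjusted p under 0.05. Their median was −1.36, beside 0.12 over all genes, and TMM rescaling moved the latter to 0.26. Of the genes called, 80 were lower and 110 higher on the deposited values, against 327 and 1272 after TMM rescaling, and no member was called in either. Without Pu.1-KO library a, Hoxa7 (−1.64, adjusted p 0.016), Hoxa9 (−1.89, adjusted p 0.0091) and Meis1 (−2.51, adjusted p 0.00421) were called. That fit holds 1 Pu.1-KO library, assumed to vary like the WT pair that gave its whole spread, and it called 6905 genes, against 190 with all libraries. Stem cell markers summed to 1912 and 2142 RPM in WT and 1003 and 1400 in Pu.1-KO, with 0 of 7 called. Mature neutrophil markers summed to 1369 and 1978 RPM in WT and 5160 and 7674 in Pu.1-KO, with 0 of 5 called. Of these, Ltf went the other way, from a mean of 7787 normalized counts in WT to 2942. Of 7 megakaryocyte and erythroid markers 4 were called lower, Klf1, Pf4, Hba-a1 and Hbb-bs. Their part in these values was not tested.

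In GMPs of the Pu.1 line Meis1 fell. It had 1069 and 1217 normalized counts in WT and 322 and 330 in Pu.1-KO, with a close pair in each genotype. The log2 fold change was −1.80 (SE 0.25, adjusted p 2.01e-10, limma, n = 2 per genotype), a 3.504-fold lower mean. This SE and p value rest on the spread that limma shares over genes of like expression, not on the values of Meis1 alone. Meis1 was called under every alternative that kept all libraries. Hoxa7 had 286 and 317 in WT and 120 and 218 in Pu.1-KO, and was called by limma on the deposited values (−0.89, SE 0.31, adjusted p 0.029). It was not called after TMM rescaling (adjusted p 0.057), by edgeR (0.093), by DESeq2 (0.076) or without WT library a (0.277), WT library b (0.610) or Pu.1-KO library a (−0.46, 0.235).

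Hoxa9 had 138 and 88.8 normalized counts in WT and 62.4 and 48.8 in Pu.1-KO, and missed the test at −0.99 (SE 0.43, adjusted p 0.092). Hoxa10 had 23.3 and 13.1 in WT and 6.16 and 11.1 in Pu.1-KO, at −0.99 (SE 0.99, adjusted p 0.478). In both genes the groups did not overlap. Of 4 members 2 were called lower, where 17.6% of 19337 genes were called and 8.49% were lower, with a median of −0.99, beside −0.0023. Mature neutrophil markers summed to 1971 and 2571 RPM in WT and 11778 and 14905 in Pu.1-KO, with 5 of 5 higher. Granulocyte–monocyte markers summed to 19921 and 20684 RPM in WT and 10230 and 14637 in Pu.1-KO, with 4 of 8 lower and 1, Cebpe, higher, while stem cell markers overlapped, at 172 and 203 against 188 and 222. B lineage markers summed to 108 and 109.6 RPM in WT and 232 and 494 in Pu.1-KO, with 6 of 8 higher. Their part in the fall of Meis1 was not tested.

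The other Hox genes, the cofactors, the chromatin regulators and the reported targets were followed as lists, whose counts are read against the share of all genes called. Of 32 other Hox genes between 2 and 10 had enough reads to be tested. Hoxb3, a 3′ gene of the Hoxb cluster active in progenitors, had 91.2 and 148 normalized counts in WT and 48.1 and 48.5 in untimed Daxx-KO KLS cells, and fell (−1.25, SE 0.31, adjusted p 0.021). In untimed GMPs it rose, from 19.9 and 32.5 to 95.3 and 108 (1.95, SE 0.34, adjusted p 0.00229), and so did its neighbour Hoxb4 (0.90, SE 0.30, adjusted p 0.044). Hoxa9 was lower in the same libraries. In KLS libraries labelled DKO, Hoxb3 was lower than in WT (−1.80, SE 0.38, adjusted p 0.013). No other Hox gene was called in the other comparisons, and of 5 non-coding RNAs of the Hoxa cluster at most 1 was tested and none called.

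Among 7 cofactors of the TALE class, Pbx3, which binds DNA with Hox proteins, was called in 3 comparisons. It had 1376 to 1438 normalized counts in WT and 21.8 to 41.6 in Daxx-KO in untimed KLS cells (−5.50, SE 0.27, adjusted p 6.71e-06). In untimed GMPs it had 578 to 632 in WT and 21.6 to 103 in Daxx-KO (−3.64, SE 0.55, adjusted p 0.00107), and Pbx2 and Pknox1 rose there. Thus 1 of 6 tested cofactors was called in untimed KLS cells, lower, where 23.1% of all genes were called and 12.5% were lower, so the count is near the background. In untimed GMPs it was 3 of 4, 1 lower and 2 higher, where 33% of all genes were called. In KLS libraries labelled DKO, Pbx3 was lower than in WT (−1.49, SE 0.30, adjusted p 0.00957), 1 of 7 where 8.4% of all genes were lower, and against Daxx-KO 0 of 7 were called by limma. In GMPs of the Pu.1 line only Pknox2 was called, 1 of 7 and higher, where 17.6% of all genes were called.

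Of 14 regulators of Hoxa chromatin, Mllt3, a subunit of the complex that supports elongation of transcription, was the one called in KLS cells. It fell in untimed KLS cells (−1.49, SE 0.099, adjusted p 2.25e-05) and in KLS libraries labelled DKO against WT (−1.36, SE 0.25, adjusted p 0.00598), in each case 1 of 11 tested. Over all genes 12.5% and 8.4% were lower in these comparisons, so neither count stands out. In untimed GMPs 5 of 11 were called, all lower, where 16.5% of all genes were: Mllt3, Psip1, and the subunits Ezh2, Eed and Suz12 of the complex that places repressive marks on Hox clusters. Ezh2 had the value −0.79 there (SE 0.092, adjusted p 0.000261). In GMPs of the Pu.1 line Men1, a partner of Kmt2a, was lower, 1 of 12 where 8.49% of all genes were lower, and in the other comparisons none was called.

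Genes reported as targets of Hoxa9 or Meis1 went both ways. In untimed KLS cells 7 of 15 tested were lower (Flt3, Cd34, Trib2, Id2, Bcl2, Hlf and Mecom) and 4 higher (Myb, Sox4, Pim1 and Igf1r), with a list median of 0.18, beside 0.032 over all genes, of which 23.1% were called. In untimed GMPs 7 of 15 were lower (Flt3, Sox4, Cd34, Mef2c, Bcl2, Hlf and Mecom) and 4 higher (Erg, Lmo2, Igf1r and Id2), with a median of −0.34, where 33% of all genes were called. Hlf and Mecom are also among the stem cell markers. Flt3, a receptor of early progenitors, had 2181 to 3591 normalized counts in WT and 814 to 924 in Daxx-KO in untimed KLS cells (−1.69, SE 0.20, adjusted p 0.000603).

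At 3 wpi none of the 15 was called between Daxx-KO and WT in either cell type, as for the members. In KLS libraries labelled DKO, 6 of 15 were lower than in WT (Flt3, Sox4, Cd34, Mef2c, Hlf and Mecom) and 1, Id2, higher, with a median of −0.80, where 17.6% of all genes were called. Against Daxx-KO, Flt3, Sox4, Cd34 and Mef2c were lower and Igf1r and Id2 higher, with a median of −0.32, where 15.4% of all genes were called. Flt3 had 2761 to 3824 normalized counts in WT, 5664 to 7765 in Daxx-KO and 381 to 670 in DKO, with no overlap between genotypes. Cd34, a surface protein of progenitors, was 2091 to 2541 in WT, 2527 to 2931 in Daxx-KO and 235 to 554 in DKO. In the Pu.1 line Sox4, Cd34 and Pim1 were lower in KLS cells, 3 of 15 where 0.81% of all genes were called, and Myb, Sox4, Cd34, Mef2c, Bcl2 and Cdk6 in GMPs, 6 of 15 where 17.6% were called and 8.49% were lower.

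**Figure D5:**
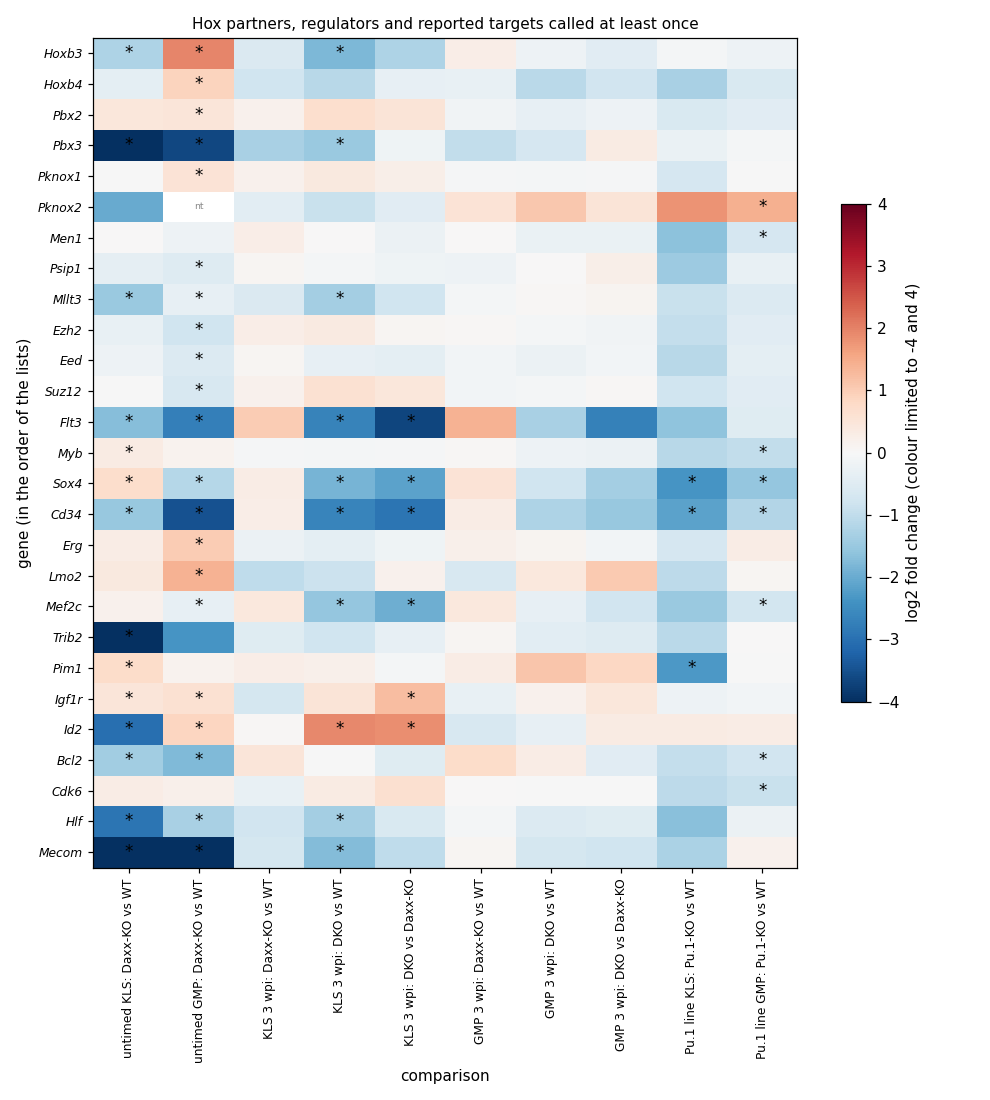
log2 fold change by limma (colour, limited to −4 and 4) of the 27 genes of the Hox, cofactor, regulator and target lists that were called at least once (rows), in 10 comparisons (columns), with an asterisk for an adjusted p under 0.05 and nt where a gene was not tested. Pbx3 has its lowest values in untimed cells, at −5.50 in KLS cells, and the columns for Daxx-KO at 3 wpi hold no asterisk.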

How the data were processed

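Gene-level RNA-seq values of KLS cells and GMPs were analysed in 36 of 59 samples. What the authors deposited is a signal per gene, given as normalized counts, in which the reads of a gene were scaled by a size factor of its library (genome mm10). The processing notes of the submitters name CASAVA 1.8.4, cutadapt 1.13, STAR 2.5.3 and DESeq2 1.16.1. The use of strand in counting is not given in the sources used here. Of 59 columns per library in the gene tables, 23 were not used, and 75 of the 111 in all deposited files were left out. Those of MPP3 and MPP4 cells, of long-term stem cells and of the Daxx-KO and DKO cells at 24 wpi carry no name that the labels give and were not analysed here. Where a column name gives a group and no replicate number, the libraries are called a, b and c. The methods of the study describe another library kit for steady-state cells than the labels do, and this was not settled.

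Each table was normalized on its own, so every test was made within 1 table. The test was limma 3.58.1 (R 4.3.3) on log2(value + 1), with the prior variance following mean expression, a scale that understates the change of low genes. Genes entered with a mean of at least 10, all libraries of a table shared 1 fit, and the Benjamini-Hochberg adjustment ran over all genes tested in a comparison. A gene was called at an adjusted p under 0.05. The share of all genes whose groups do not overlap was not counted, so statements of overlap only describe values. Dividing by the value of 1 read gave whole reads for 100% of the values of every library, within 0.01 read. These recovered reads gave the depth, the reads per 1000000 reads in genes (RPM) and the counts for edgeR 4.0.16 and DESeq2 1.42.0, which were run as alternatives. Other alternatives were a pseudocount of 0.5, no filter on low values, TMM rescaling, the replicate number as a block and leaving out each library in turn. Scripts were tested on simulated data.

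Gene spans came from the GENCODE annotation of GRCm38, the assembly that mm10 names, and 250 bases before gene starts from RefSeq tables of GRCm38.p6. The GENCODE release was a later one than the study names for its own work. Covered shares may differ between the releases, and this was not tested. The 8 members, the gene lists and the marker lists were chosen with earlier results of these data known. From the list of cofactors 1 gene is not reported here. All members are named in every comparison, and genes of the lists where called. For Hoxa9 and Meis1, the 5 genes most correlated with each are named, among genes with a mean of 5 RPM or more. Counts cover counting error only, and RNA-seq reads without molecular identifiers are not independent molecules.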

Additional observations from a re-analysis of the deposited data

Results flagged for a closer look

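For 3 genes every Daxx-KO library lay on one side of the mean of the WT values on the log2 scale in 1 table and every one on the other side in another table. The libraries labelled DKO were not part of this comparison. Because the tables were normalized separately, the difference between tables was not tested. Values are limma log2 fold changes of Daxx-KO over WT. For Meis1 the value was −0.67 in KLS cells at 3 wpi, 0.22 in GMPs at 3 wpi and −0.92 in untimed GMPs. For Hoxa7 it was −0.64 in untimed KLS cells and 0.45 in KLS cells at 3 wpi, and −0.93 in untimed GMPs against 0.79 in GMPs at 3 wpi. For Hoxa9 it was −2.36 in untimed KLS cells and 0.53 in KLS cells at 3 wpi. Of these values, that of Hoxa9 in untimed KLS cells and that of Meis1 in untimed GMPs passed the test, and those at 3 wpi did not. The labels give the untimed cells no time point, and time, transplantation and library preparation cannot be told apart between the tables.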

How the results depend on the processing

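Over the 4 members with reads, 392 of 399 results under an alternative kept the direction of the value in the report. For the 13 results that were called, all 136 alternatives kept the direction and 115 kept the call. The number of members called moved by more than 1.5 times with DESeq2 in untimed GMPs (1 against 2) and in GMPs at 3 wpi (2 against 0, for DKO against WT and against Daxx-KO). In GMPs of the Pu.1 line it was 1 against 2 with TMM rescaling, with edgeR and with DESeq2. Leaving out 1 library at a time gave 1 to 3 members in untimed KLS cells, 1 to 2 in untimed GMPs, 0 to 4 for DKO against WT and 0 to 4 for DKO against Daxx-KO in KLS cells, 0 to 3 in Pu.1-KO KLS cells, 1 to 2 in Pu.1-KO GMPs and 0 in the other 4 comparisons. The cause was not tested.

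The values that changed sign were all uncalled. For Daxx-KO against WT at 3 wpi in KLS cells, Hoxa10 was −0.0035 without the unnumbered WT library and −0.046 with the replicate block, and at most 0.31 with a library left out. In GMPs at 3 wpi, Meis1 for Daxx-KO against WT ran from −0.24 without WT library c to 0.72 without WT library b. Hoxa7 for DKO against WT ran from −0.68 without DKO library b, with −0.25 without WT library c, to 0.94 without DKO library a. Hoxa9 for DKO against WT ran from −2.19 without DKO library b to 0.011 without DKO library a, and Hoxa7 for DKO against Daxx-KO from −1.47 without DKO library b to 0.15 without DKO library a.

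Deviations of same-numbered libraries had r of −0.0095 in untimed KLS cells, −0.111 in untimed GMPs, and −0.214 to 0.126 in KLS cells at 3 wpi. With 2 untimed libraries per genotype, the other pairing has by construction the same r with the opposite sign. Such an r cannot decide whether same-numbered libraries belong together, and the labels do not say. With the replicate block 4 members were called in untimed KLS cells, 2 in untimed GMPs, and in KLS cells at 3 wpi 0 for Daxx-KO against WT, 3 for DKO against WT and 3 for DKO against Daxx-KO. In the same order the block called 3343, 3722, 66, 2061 and 1267 genes, where the fit without it called 3118, 4209, 39, 2681 and 2340. A crossed pairing of untimed GMPs, chosen after seeing the data, called 2 members and 4921 genes. In KLS cells at 3 wpi the unnumbered WT library and Daxx-KO library 3 have no partner, so the block drops both from Daxx-KO against WT. No paired analysis was possible because the numbers in the column names of GMPs at 3 wpi and of the Pu.1 line differ between genotypes and stand in no title of those samples.

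Over all genes, DESeq2 called 342 against 39 for Daxx-KO against WT at 3 wpi in KLS cells, and in GMPs 80 against 13, 263 against 40 and 280 against 8. In the last of these TMM gave 18, edgeR 20 and no filter 13. In Pu.1-KO KLS cells TMM gave 1599, edgeR 1920 and DESeq2 1357 against 190, and no filter gave 1751 against 3118 in untimed KLS cells. Depth limits Hoxa10 in GMPs, which rested on few reads. Alternatives for the remaining 24 wpi genotypes and for further cell types were not run.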

Other observations

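Genes were ranked by how closely they followed Hoxa9 or Meis1 over the 36 libraries, as Pearson's r of log2 values with the mean of each table removed, among 11884 genes. The libraries share groups and tables, so r is a description. The genes closest to Hoxa9 were Arhgap32 (r = 0.905), Eml4 (0.889), Ccnd2 (0.882), Abi2 (0.865) and Oxct1 (0.859). Ccnd2 is a cyclin of the G1 phase. Hoxa7 stood at rank 78 (0.754), Meis1 at rank 120 (0.730) and Hoxa10 at rank 138 (0.721), and Spi1 had r = −0.713. The genes closest to Meis1 were Soga1 (0.936), Smyd2 (0.886), Gm16897 (0.882), Abcc1 (0.876) and Angpt1 (0.875), a ligand of the Tie2 receptor. Hoxa10 stood at rank 135 from Meis1.

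In the libraries labelled DKO at 3 wpi, Hoxa7 had 8.03 and 14.5 RPM in KLS cells and 8.48 and 25.8 in GMPs. The means, 11.3 and 17.1 RPM, stood in the opposite order to those of WT, at 36.6 and 15.3, but the ranges overlapped and the order of the means rested on GMP library b. Hoxa9 and Meis1 kept the order of WT, at means of 19.4 and 5.94 RPM and of 421 and 31.2 RPM. The tables were normalized separately and this was not tested.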
